A study of Mus musculus with 9 samples.

Results

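The 9 genes described here serve protein folding in the endoplasmic reticulum (ER), and were followed in mouse prostate epithelium in culture, with and without the retinoblastoma gene Rb1. The genes were Hspa5, Hsp90b1, Pdia3, Pdia4, Pdia6, Calr, Canx, Dnajb9 and Xbp1, and they were found by their gene symbols in the annotation of the array. That rule returned 13 probe sets, sets of short probes that each measure a transcript, for 9 genes among 12421 probe sets with values. Of the 13, 11 probe sets for 8 genes rose above the detection floor often enough to be tested, as did 9686 of all probe sets. Calr and a second probe set of Dnajb9 did not.

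The ER is where secreted and membrane proteins enter, fold and receive their sugars and disulfide bonds. Hspa5 (BiP) and Hsp90b1 (GRP94) bind unfolded chains, Calr and Canx hold glycoproteins, and the Pdia enzymes form and rearrange disulfide bonds. When unfolded protein builds up, sensors in the ER membrane start the unfolded protein response. In one branch the sensor IRE1 splices the Xbp1 mRNA, in another ATF6 is cut and moves to the nucleus, and both resulting factors raise chaperone genes. The arrays read total transcript and cannot tell spliced from unspliced Xbp1.

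The arrays came from 4 groups: the wild-type line (wtPrE) with 5% serum, 3 arrays, and without serum for 48 hours, 2 arrays, and the Rb-/- line (Rb-/-PrE) with 5% serum, 2 arrays, and without serum for 48 hours, 2 arrays. Both lines were grown in the same base medium. Each genotype is represented by 1 line, and a line difference and a genotype difference cannot be told apart. The labels do not state whether arrays of a group had cultures of their own, so each p-value reflects only array-to-array spread, possibly technical. Precision is limited by the small number of arrays. The sources used here do not describe the Rb1 allele.

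The tested Rb1 probe set read 361 to 713 in deposited intensity on the wild-type arrays and 112 to 166 on the Rb-/- arrays, without overlap. Array medians ran from 444.9 to 473.8. The array wild-type serum 1 stood apart: its rank correlation with the other wild-type serum arrays was 0.983 and 0.986, against 0.997 between those. Member counts are given with and without it, as are the counts of the gene lists that are described. All 7 luminal and general epithelial markers on the array, among them Krt8, Krt18 and Cdh1, were above the floor on every array, as were 5 of 6 basal markers (Krt15 was below). Markers of other cell types were mixed. Vim, Acta2, Myh11 and Cnn1 of 9 smooth muscle and fibroblast markers, Tek and Tie1 of 5 endothelial markers, and Ptprc of 5 leukocyte markers were below the floor on every array. Col1a1, Col1a2, Col3a1, Des, Pdgfra, Kdr, Pecam1, Laptm5, Cd68, Itgam and the neuroendocrine marker Chga were above it on all 9. Cdh5, Cd3g and Syp were above it on 4, 6 and 5 arrays. Whether other cells were present was not tested. Summed normalized intensity of the 9 smooth muscle and fibroblast markers ran from 3666 to 4680 in the wild-type groups and from 3712 to 3845 in the Rb-/- groups. That of the 6 basal markers ran from 3401 to 3736 and from 4150 to 4555. Of these 6, Lamb3 alone was called between the lines (0.56), and Krt5 (-0.14), Trp63 (0.05), Itga6 (0.03) and Krt14 (-0.01) did not pass. The part of these shifts in the results below was not tested.

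Chaperone genes are known to share a promoter sequence, the ER stress element, read by ATF6 and XBP1 together with the factor NF-Y. It was searched as CCAAT, then 9 bases of any kind, then CCACG, on both strands, in windows from 250 bases before to 50 bases after each annotated start (RefSeq, GRCm38.p6). All 9 genes had a window, and 5 of the 9 held at least 1 full match, Hsp90b1 holding a pair. Among all 32851 windows 39 (0.119%) held one, or 37 of 27025 genes (0.137%). CCAAT alone, which is part of the element, was in 37.4% of all windows and in those of 8 of the 9 genes, and CCACG alone in 32.8% and in those of 7. The element TGACGTGG was in none of the 9 and in 0.676% of all windows. No match says only that these letters are not in this window.

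The upstream bases of Hspa5, Pdia6 and Pdia4 are shown as examples of genes that differed between the lines, Hspa5 upwards and the others downwards. Xbp1 differed as clearly (0.51, adjusted p = 0.00039 by limma) and is not shown. Its window held neither CCAAT nor CCACG. Each stretch shown runs 5′ to 3′ on the gene's strand and ends at the base before the start, with full matches in capitals. Hspa5 lies at chr2:34771840-34772089 (plus strand), Pdia6 at chr12:17266339-17266588 (plus strand) and Pdia4 at chr6:47813513-47813762 (minus strand), all in GRCm38.p6.
Hspa5: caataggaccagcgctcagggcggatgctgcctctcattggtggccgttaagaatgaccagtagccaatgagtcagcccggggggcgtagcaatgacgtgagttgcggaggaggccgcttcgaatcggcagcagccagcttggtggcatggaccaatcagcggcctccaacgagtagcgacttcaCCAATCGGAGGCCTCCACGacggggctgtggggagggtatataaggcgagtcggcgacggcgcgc
Pdia6: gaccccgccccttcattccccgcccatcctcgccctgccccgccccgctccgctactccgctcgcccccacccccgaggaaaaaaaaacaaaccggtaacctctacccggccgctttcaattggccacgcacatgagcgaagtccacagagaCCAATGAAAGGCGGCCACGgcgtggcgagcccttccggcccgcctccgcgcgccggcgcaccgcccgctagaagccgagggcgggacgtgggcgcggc
Pdia4: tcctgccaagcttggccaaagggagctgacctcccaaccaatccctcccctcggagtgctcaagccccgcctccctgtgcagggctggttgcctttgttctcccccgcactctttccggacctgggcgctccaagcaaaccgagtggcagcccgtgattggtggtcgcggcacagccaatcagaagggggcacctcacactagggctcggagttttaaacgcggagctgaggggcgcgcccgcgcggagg
The Hspa5 match spans positions -65 to -47 from the start and that of Pdia6 -98 to -80, while the Pdia4 window holds CCAAT and CCACG apart from each other. The matches of the remaining genes are given with both fixed parts in capitals, read 5′ to 3′ on the strand that carries them.
Hspa5: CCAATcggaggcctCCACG
Pdia6: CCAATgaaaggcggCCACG
Hsp90b1, farther from the start: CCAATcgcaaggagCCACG
Hsp90b1, nearer, opposite strand: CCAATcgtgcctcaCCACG
Calr, opposite strand: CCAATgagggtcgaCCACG
Canx: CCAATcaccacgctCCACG
A full match was thus present upstream of Hspa5, which was higher in the Rb-/- line, and of Pdia6, which was lower there. It was also present for Hsp90b1 and Canx, which did not pass averaged over the media, and for Calr, which could not be tested. No full match was in the windows of Pdia4, which was lower, Xbp1 and Dnajb9, which were higher, and Pdia3, which did not pass. Any part of the element in these differences was not tested.

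**Figure D1:**
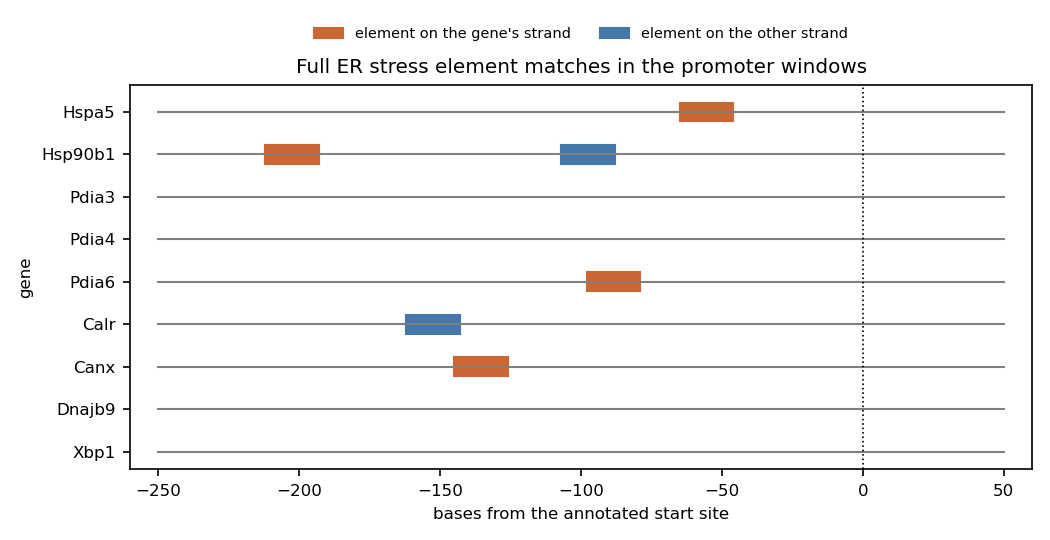
Positions of full ER stress element matches (boxes) in the promoter window of each gene (grey line), in bases from the annotated start site (dotted line). Hspa5, Hsp90b1, Pdia6, Calr and Canx hold at least 1 match, Hsp90b1 a pair, and Pdia3, Pdia4, Dnajb9 and Xbp1 none.

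The comparison of the lines asked how the chaperone genes differed without Rb1. They did not move as a block. Hspa5 and Xbp1 were higher in the Rb-/- line by 0.56 and 0.51 on the log2 scale averaged over the media. Pdia4 was lower by -0.82 and Pdia6 by -0.88 and -0.83 on 2 of its 3 probe sets. Dnajb9 was higher by 0.60, but its arrays overlapped between the lines and its values reached the floor. Its call was lost with no filter on low probe sets. Hsp90b1, Pdia3 and Canx did not pass. Differences are log2 values from a limma fit with Benjamini-Hochberg adjustment over all tested probe sets, and called means an adjusted p under 0.05.

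Averaged over the media, 6 of the 11 tested probe sets were called, 3 higher and 3 lower. Of all 9686 probe sets 45.2% were called in this comparison, 21.8% higher and 23.4% lower, so the share of called members was near that of the array. With 1 probe set per gene, 3 of 8 genes were higher and 2 lower, with a median of 0.05 against -0.05 over all tested probe sets. Leaving out wild-type serum 1, 10 of 10 tested probe sets were called, 4 higher and 6 lower, against 62.9% of the array. The share of higher probe sets among all calls was 48.1% here, against 69.3% without any normalization and 60.7% under median scaling. Under either of those scalings 4 of the members' probe sets were higher and 4 lower.

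In serum 5 of the 11 were called, 2 higher and 3 lower, against 23.6% of the array (13.2% higher, 10.4% lower). It was 8 of 10 without wild-type serum 1, 4 in each direction, against 45.3%, and without Rb-/- serum 2 it was 3. The share of higher calls on the array was 55.9%, 73.4% as deposited and 68.0% with median scaling. In serum-free medium 6 of the 11 were called, 2 higher and 4 lower, against 30.7% (16.8% higher, 13.9% lower). It was 9 of 10 against 51.6% without wild-type serum 1, which is in neither group compared but shares the normalization, the filter and the estimate of spread. It was 2 without wild-type serum-free 1 and 3 without Rb-/- serum-free 1. The share of higher calls was 54.8%, 77.6% as deposited and 68.1% with median scaling.

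**Figure D2:**
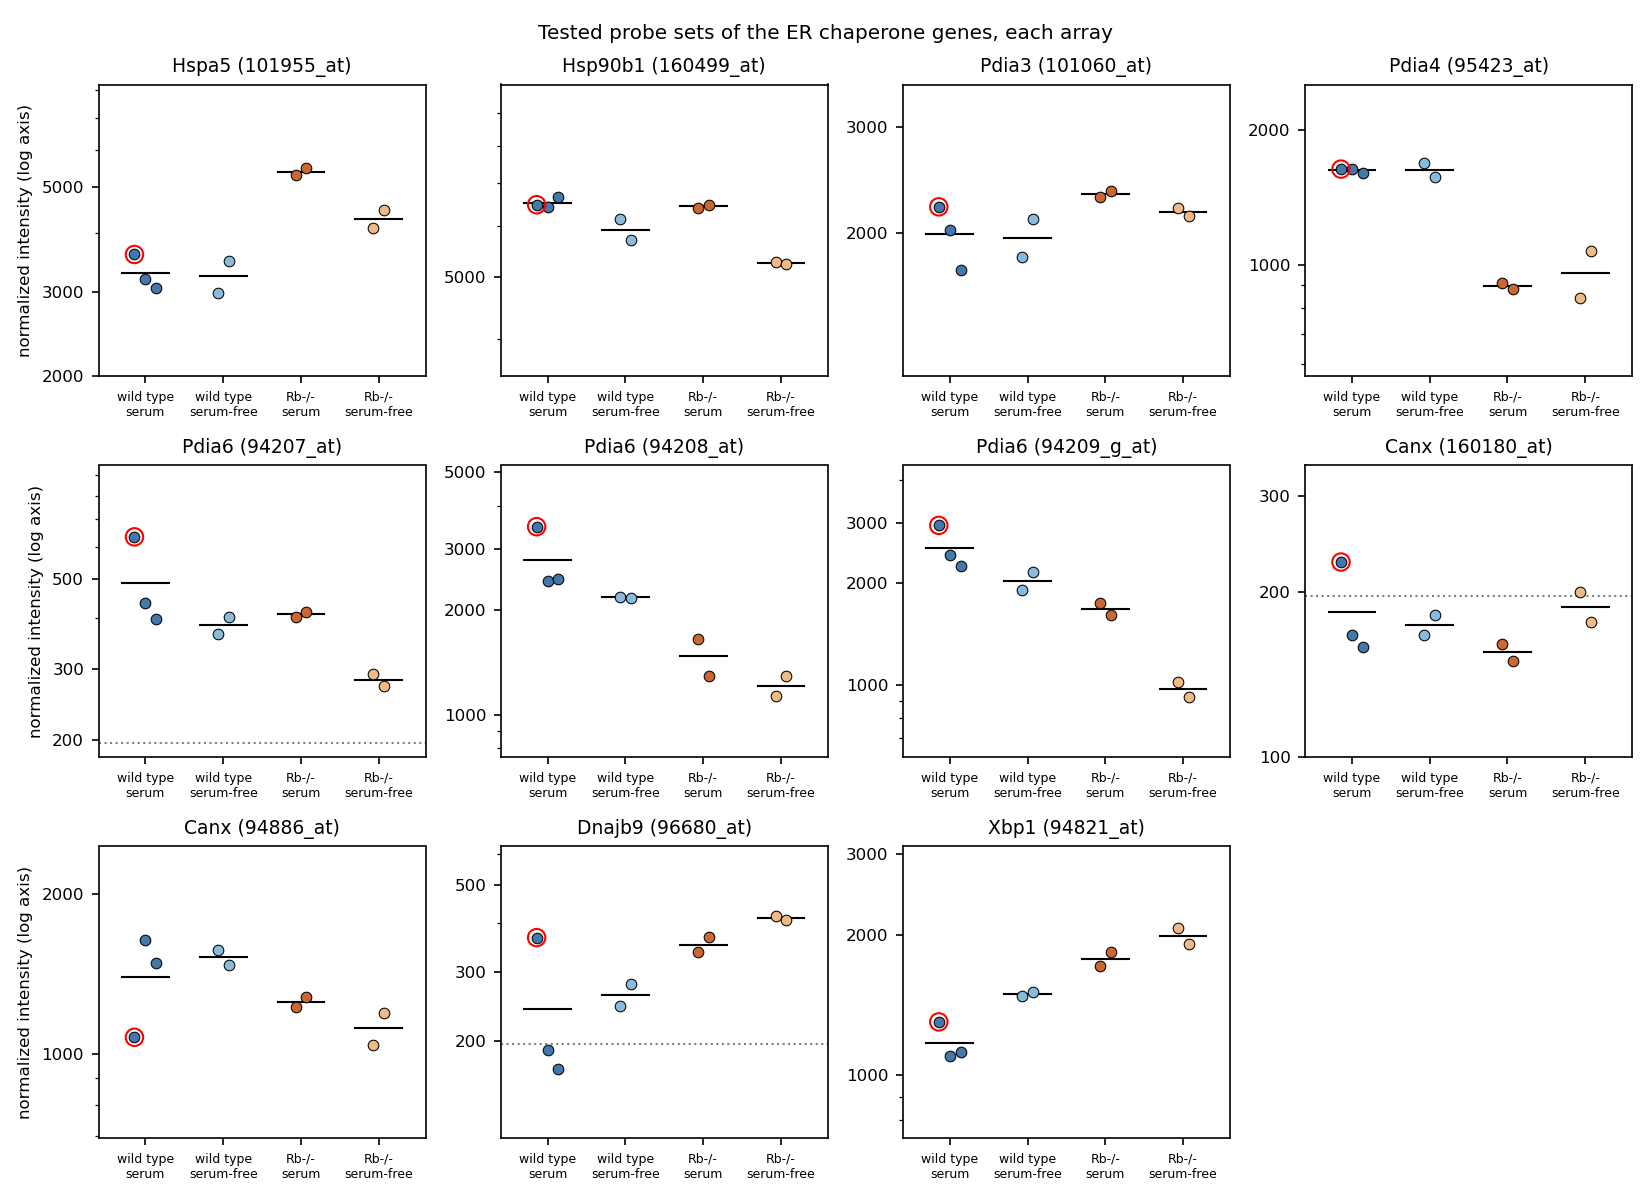
Normalized intensity (log axis) of the 11 tested probe sets on each of the 9 arrays, by group. Black lines are group means, the red ring marks wild-type serum 1 and the dotted line the floor. Hspa5 and Xbp1 are higher and Pdia4 lower on every Rb-/- array than on any wild-type array.

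Hspa5 encodes BiP, the ATP-driven Hsp70 chaperone of the ER lumen that also holds the stress sensors inactive. In serum its normalized intensity was 3602, 3198 and 3062 on the wild-type arrays and 5297 and 5486 on the Rb-/- arrays. Without serum it was 2989 and 3490 in the wild-type line and 4095 and 4475 in the Rb-/- line. All 4 Rb-/- arrays lay above all 5 wild-type arrays, in the order Rb-/- serum, Rb-/- serum-free, then both wild-type groups, which overlapped each other. In serum the difference was 0.72 (SE 0.09, adjusted p = 0.000586). Without serum it was 0.41 (SE 0.10, adjusted p = 0.015). This latter call was lost with no filter on low probe sets and on leaving out wild-type serum-free 1 or Rb-/- serum-free 2 (highest adjusted p = 0.117), and the serum call was kept in all 17 alternatives.

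Hsp90b1 encodes GRP94, the Hsp90 of the ER. In serum it read 6475, 6425 and 6650 in the wild-type line and 6404 and 6475 in the Rb-/- line. These overlapped, with a difference of -0.02 (95% interval -0.13 to 0.10). Without serum it read 6147 and 5694 in the wild-type line and 5276 and 5242 in the Rb-/- line, lower by -0.17 (SE 0.05, adjusted p = 0.0434). That call was lost in 13 of 17 alternatives, with adjusted p up to 0.482. The direction in serum depended on the scaling: as deposited the Rb-/- serum arrays read 7076 and 7143 against 6423, 6475 and 6367, a difference of 0.15 with an adjusted p of 0.0605.

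Of the lectin chaperones, Canx (calnexin, held in the membrane) read 1073, 1635 and 1481 in wild-type serum and 1224 and 1276 in Rb-/- serum. Wild-type serum 1 was the low array of its group and lay below both Rb-/- arrays. Without serum Canx read 1567 and 1470 in the wild-type line and 1039 and 1194 in the Rb-/- line, with no overlap, and the difference of -0.45 (95% interval -0.84 to -0.06, adjusted p = 0.0768) did not pass. Canx was called lower without wild-type serum 1, averaged over the media (-0.38, adjusted p = 0.000538), in serum (-0.32, adjusted p = 0.0149) and without serum (-0.44, adjusted p = 0.00253). Its other probe set was above the floor on 2 of the 9 arrays and passed in no comparison. Calr (calreticulin, the soluble counterpart of Canx) lay between 40.3 and 54.5 on all 9 arrays, below the floor of 196.7, so no difference could be read.

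Pdia4 (ERp72), a disulfide isomerase with several thioredoxin-like domains, read 1636, 1639 and 1600 in wild-type serum, 1686 and 1568 in wild-type serum-free, 909 and 881 in Rb-/- serum and 845 and 1073 in Rb-/- serum-free. Every Rb-/- array lay below every wild-type array, and wild-type serum 1 lay with its group. In serum the difference was -0.86 (SE 0.10, adjusted p = 0.000406). In serum-free medium it was -0.77 (SE 0.11, adjusted p = 0.0013), and both were called in all 17 alternatives. The levels of the 2 media overlapped in each line.

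Pdia6 (P5), an isomerase that is known to bind BiP, had 3 probe sets, which read the same gene and are not independent. Whether they share probes was not checked. The probe set 94208_at read 3479, 2425 and 2455 in wild-type serum and 1653 and 1290 in Rb-/- serum, a difference of -0.91 (SE 0.16, adjusted p = 0.00402). Without serum it read 2182 and 2169 against 1131 and 1292, a difference of -0.85 (SE 0.18, adjusted p = 0.00836). On 94209_g_at the arrays read 2944, 2410 and 2238 in wild-type serum, 1738 and 1607 in Rb-/- serum, 1903 and 2152 in wild-type serum-free and 1023 and 919 in Rb-/- serum-free, and the differences were -0.59 in serum (adjusted p = 0.00737) and -1.06 without serum (adjusted p = 0.00057). The wild-type and Rb-/- arrays did not overlap on either probe set in either medium.

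The averaged difference of both these Pdia6 probe sets was called in all 16 alternatives, and the serum-free one of 94209_g_at in all 17. Both serum calls were lost without Rb-/- serum 2 (adjusted p up to 0.0852), and that of 94209_g_at also as deposited and with median scaling. The serum-free call of 94208_at was lost in the deposited values and without wild-type serum-free 1, wild-type serum-free 2 or Rb-/- serum-free 1 (adjusted p up to 0.0699). The remaining Pdia6 probe set, 94207_at, read 634, 435 and 398 in wild-type serum and 401 and 415 in Rb-/- serum, which overlapped, and its averaged difference of -0.34 (adjusted p = 0.0511) did not pass. When wild-type serum 1, the high array, was left out it was -0.24 (adjusted p = 0.0043).

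Pdia3 (ERp57), the isomerase that works with Calr and Canx on glycoproteins, read 2212, 2025 and 1743 in wild-type serum, 1827 and 2109 in wild-type serum-free, 2298 and 2347 in Rb-/- serum and 2201 and 2135 in Rb-/- serum-free. Within each medium the Rb-/- arrays lay above the wild-type arrays, narrowly, and across media they overlapped. The averaged difference of 0.19 (95% interval 0.01 to 0.36, adjusted p = 0.0787) did not pass. It did as deposited, with median scaling and without wild-type serum 1, where it was 0.22 (adjusted p = 0.0121).

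Xbp1, the transcription factor of the IRE1 branch, read 1303, 1098 and 1125 in wild-type serum, 1481 and 1512 in wild-type serum-free, 1719 and 1839 in Rb-/- serum and 2071 and 1921 in Rb-/- serum-free. The 4 groups did not overlap and rose in that order, although the step between the Rb-/- groups (0.17, adjusted p = 0.381) did not pass. The genotype difference was 0.60 in serum (SE 0.09, adjusted p = 0.00161), called in all 17 alternatives. In serum-free medium it was 0.41 (SE 0.10, adjusted p = 0.0139), which did not pass when wild-type serum-free 1, wild-type serum-free 2 or Rb-/- serum-free 1 was left out (adjusted p up to 0.0936).

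Dnajb9 (ERdj4), a J-domain partner of BiP, read 368, 189.9 and 169.7 in wild-type serum, 246 and 280.2 in wild-type serum-free, 337 and 369 in Rb-/- serum and 419 and 409 in Rb-/- serum-free. Wild-type serum 1 alone of its group was above the floor and lay at the Rb-/- serum level. With that array too the others of its group were raised to the floor, and the difference in serum was 0.54 (SE 0.23, adjusted p = 0.131). Without it both remaining wild-type serum arrays were raised to the floor, so that group had no spread by construction and the fitted differences of Dnajb9 against it are no exact values. The calls of Dnajb9 counted without that array rest on this. The serum-free difference was 0.66 (SE 0.26, adjusted p = 0.0793), with no overlap of the arrays. The averaged call (adjusted p = 0.0209) was lost with no filter and without wild-type serum-free 1 or any single Rb-/- array (adjusted p up to 0.0854). The other probe set, 96679_at, lay between 82.8 and 174.6 and below the floor on every array.

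**Figure D3:**
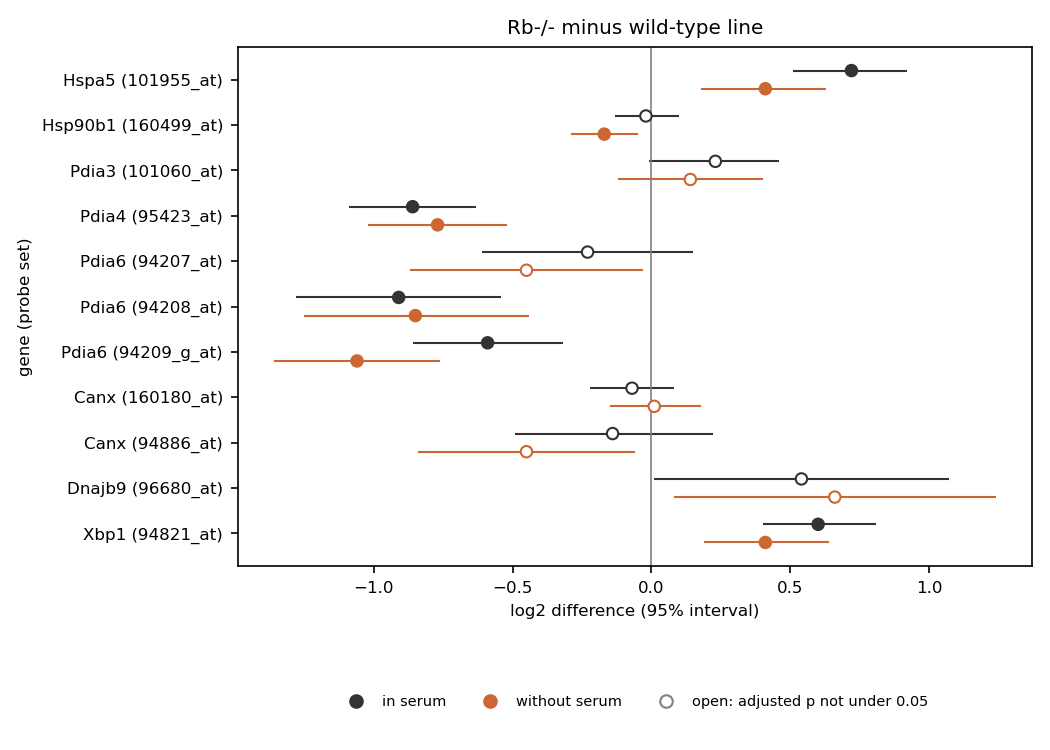
Log2 difference of the Rb-/- minus the wild-type line with its 95% interval, in serum (dark) and without serum (orange), for the 11 tested probe sets. Filled points passed an adjusted p of 0.05. Hspa5 and Xbp1 lie right of 0 and Pdia4 and 2 Pdia6 probe sets left of 0 in both media.

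Serum withdrawal, compared within each line, asked how the genes responded to 48 hours without serum. In the wild-type line Xbp1 rose by 0.35 (SE 0.09, adjusted p = 0.0282) and no other tested probe set passed. In the Rb-/- line Hsp90b1 fell by 0.29 (SE 0.05, adjusted p = 0.00728) and Pdia6 on 94209_g_at fell by 0.78 (SE 0.13, adjusted p = 0.00425). Pdia4 had differences of 0.00 (95% interval -0.23 to 0.23) in the wild-type line and 0.09 (95% interval -0.16 to 0.34) in the Rb-/- line.

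In the wild-type line 1 of the 11 was called, against 15.9% of the array (6.61% higher, 9.25% lower). The share of higher calls on the array was 41.7%, and 25.7% as deposited. As deposited the 1 call was instead Hsp90b1, lower by -0.22 (adjusted p = 0.019). The Xbp1 call was lost in 11 of 17 alternatives, with adjusted p up to 0.226. It was lost without wild-type serum 2 or 3, wild-type serum-free 1 or 2, or Rb-/- serum 1 or 2, each of which left 0 calls. Without wild-type serum 1, 2 of 10 were called against 20.3%: Xbp1 (0.43, adjusted p = 0.00168) and Dnajb9, whose serum group then lay wholly at the floor and whose difference with that array was 0.12 (adjusted p = 0.776). Hspa5 differed by -0.02 (95% interval -0.23 to 0.18), and the 3 Pdia6 probe sets by -0.32, -0.34 and -0.31, none of which passed.

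In the Rb-/- line 2 of the 11 were called, both lower, against 13.9% of the array (7.50% higher, 6.42% lower). Hsp90b1 went from 6404 and 6475 to 5276 and 5242, and 94209_g_at of Pdia6 from 1738 and 1607 to 1023 and 919, with no overlap. The other Pdia6 probe sets differed by -0.27 (adjusted p = 0.442) and -0.54 (adjusted p = 0.0965), so the probe sets of the gene did not pass together. The Pdia6 call was kept in all 18 alternatives, and that of Hsp90b1 was lost without Rb-/- serum 1 or Rb-/- serum 2 (adjusted p up to 0.0727), either of which left 1 call. Hspa5 did not pass at -0.33 (adjusted p = 0.0562). Without wild-type serum 1, again in neither group compared, 4 of 10 were called against 23.6%, with Hspa5 at -0.34 (adjusted p = 0.0129) and 94207_at of Pdia6 at -0.54 (adjusted p = 0.00105) added.

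The difference between the lines in their response, the interaction, was called by limma for 0 of the 11 probe sets, against 0.929% of the array (0.454% higher, 0.475% lower). At an unadjusted p under 0.05 there were 2, Hspa5 (-0.31, 95% interval -0.61 to -0.01, adjusted p = 0.443) and 94209_g_at of Pdia6 (-0.47, 95% interval -0.87 to -0.07, adjusted p = 0.362). Without wild-type serum 1 that Pdia6 probe set was called at -0.58 (adjusted p = 0.0429), as 1 of 10 members against 2.64% of the array, and Hspa5 was not (-0.39, adjusted p = 0.125).

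**Figure D4:**
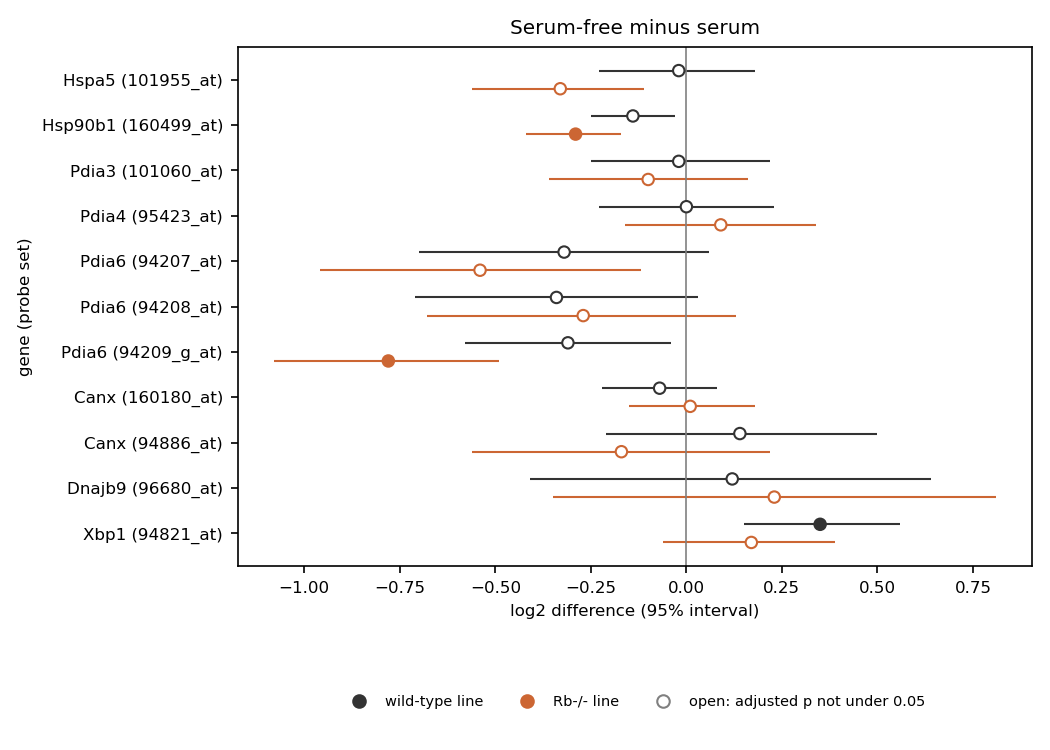
Log2 difference of serum-free minus serum with its 95% interval, in the wild-type line (dark) and the Rb-/- line (orange), for the 11 tested probe sets. Xbp1 in the wild-type line, and Hsp90b1 and 94209_g_at of Pdia6 in the Rb-/- line, are the filled points, which passed an adjusted p of 0.05.

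Other genes of the pathway were read from 4 lists, each gene by its tested probe set with the highest mean. Among 27 other ER folding and redox genes, 10 were higher and 4 lower in the Rb-/- line averaged over the media (13 and 8 without wild-type serum 1). The median was 0.08 against -0.05 for the array, of which 21.8% were higher and 23.4% lower (62.9% called without wild-type serum 1). Erp29, a lumenal relative of the isomerases, was higher at 0.48 and Prdx4, the peroxiredoxin of the ER, at 0.80, while Mogs, the glucosidase that trims the outermost glucose of N-glycans, was lower at -0.46. Each kept its call whichever single array was left out. In serum, Manf, a secreted ER stress protein, was higher at 0.64 (adjusted p = 0.00275) and Creld2, another, at 0.54 (adjusted p = 0.00338, and 0.0507 without Rb-/- serum 1). Without serum neither passed, with Manf at 0.00 (SE 0.12) and Creld2 at 0.06 (adjusted p = 0.66). The interaction was called for neither, with Manf at -0.64 (adjusted p = 0.14) and Creld2 at -0.48 (adjusted p = 0.214). It was called for 0 of the 27 genes, against 0.929% of the array. Without wild-type serum 1 it was 2, both lower, against 2.64%.

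In the Rb-/- line 4 of the 27 folding genes fell on withdrawal and 1 rose, with a median of -0.17 against 0.00 for the array. Of the array 6.42% fell and 7.50% rose (23.6% called without wild-type serum 1). Manf fell by 0.85 (adjusted p = 0.00153) and Creld2 fell by 0.74 (adjusted p = 0.00161), both kept whichever single array was left out. Fkbp2, a prolyl isomerase, fell by 0.51 and lost its call without Rb-/- serum 1 or Rb-/- serum-free 1 (adjusted p up to 0.136). The total of 5 calls was 11 without wild-type serum 1 (1 higher, 10 lower) and 2 or 3 without any other single array except wild-type serum 3. In the wild-type line 6.61% of the array rose and 9.25% fell (20.3% called without wild-type serum 1). Of the 27 folding genes 2 rose there and 4 fell (3 and 4 without wild-type serum 1), with Sdf2 at 0.63 and Prdx4 at -0.99. That total of 6 was 2 without either wild-type serum-free array and 3 without Rb-/- serum 1, Rb-/- serum 2 or Rb-/- serum-free 1.

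In the list of unfolded protein response sensors, factors and effectors, more genes rose than fell on withdrawal in each line. The sensor genes Eif2ak3 (PERK) and Atf6 did not pass on withdrawal in either line. Eif2ak3 was at -0.06 in the wild-type and -0.18 in the Rb-/- line, and Atf6 at -0.19 and 0.22. In the Rb-/- line 8 of 24 rose and 0 fell, with a median of 0.10 against 0.00 for the array, of which 7.50% were higher and 6.42% lower. Without wild-type serum 1, 8 rose and 2 fell, against 23.6% of the array called. In the wild-type line 4 rose and 1 fell (median 0.12 against 0.05), against 6.61% and 9.25% of the array. Without wild-type serum 1 it was 5 and 1, against 20.3% of the array called. Ddit3 (CHOP), a factor of the PERK and ATF4 branch, rose by 1.38 in the Rb-/- line and 1.26 in the wild-type line, and Trib3, its target, by 1.22 and 0.96. Cebpb rose by 1.11 and 0.63. These calls held whichever single array was left out. The total of 8 was 5 without Rb-/- serum 1 and 4 without Rb-/- serum 2, and the total of 5 was 3 without wild-type serum 2, wild-type serum-free 1 or wild-type serum-free 2. Between the lines, averaged over the media, 8 of 24 were higher and 6 lower in the Rb-/- line (9 and 8 without wild-type serum 1). The array had 21.8% higher and 23.4% lower (62.9% called without wild-type serum 1). Ddit3 was at 1.19, Atf4 at 0.54 and Atf3 at 1.87. The sensor gene Eif2ak3 was called higher at 0.75 (adjusted p = 0.00281), and also in serum (0.82) and without serum (0.69). Atf6 at 0.18 (adjusted p = 0.174) did not pass. The Atf3 probe set has a suffix (_f_at) that marks probes shared within a gene family.

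Of 34 genes of translocation into the ER, N-glycosylation and ER degradation, 12 were higher and 8 lower in the Rb-/- line averaged over the media, with a median of 0.00 (14 and 9 without wild-type serum 1). The array had 21.8% higher and 23.4% lower (62.9% called without wild-type serum 1). Srp19, a subunit of the signal recognition particle, was higher at 0.77 and Derl1, a degradation channel protein, at 0.48, and Edem2, a mannosidase-like degradation factor, was lower at -0.47, and each call held whichever single array was left out. On withdrawal 0 rose and 5 fell in the Rb-/- line, against 7.50% and 6.42% of the array (23.6% called without wild-type serum 1). That total of 5 was 9 without wild-type serum 1 (2 rose, 7 fell), 0 without Rb-/- serum 1 or 2, and 1 without Rb-/- serum-free 1 or 2. In the wild-type line 2 rose and 4 fell (3 and 4 without wild-type serum 1), against 6.61% and 9.25% of the array (20.3% called without wild-type serum 1). That total of 6 was 3 without wild-type serum 2, 1 without wild-type serum-free 1 and 0 without wild-type serum-free 2. The genotype total of 20 was 12 without wild-type serum-free 2 and 13 without Rb-/- serum 2. Of 33 cytosolic and mitochondrial chaperones 10 were higher and 4 lower in the Rb-/- line averaged over the media (median 0.07, 16 and 5 without wild-type serum 1). Again 21.8% of the array were higher and 23.4% lower (62.9% called without wild-type serum 1). Hspa9, the mitochondrial Hsp70, was at 0.66. On withdrawal 4 of the 33 rose and 7 fell in the wild-type line, and 2 rose and 9 fell in the Rb-/- line (3 and 7, and 3 and 10, without wild-type serum 1). The array had 6.61% and 9.25% in the wild-type line, and 7.50% and 6.42% in the Rb-/- line (20.3% and 23.6% called without wild-type serum 1). The wild-type total of 11 was 5 without wild-type serum-free 1 (3 rose, 2 fell) or wild-type serum-free 2 (2 rose, 3 fell). The Rb-/- total of 11 was 4 without Rb-/- serum 1 and 5 without Rb-/- serum 2, Rb-/- serum-free 1 or Rb-/- serum-free 2. The stress-inducible cytosolic Hsp70 genes Hspa1a and Hspa1b, near-identical copies whose probe sets may share transcripts, were the 2 called genes of this list in the interaction (3 without wild-type serum 1, 1 without wild-type serum-free 2), at -1.59 (adjusted p = 0.00046) and -2.08 (adjusted p = 0.00433, and 0.0513 without wild-type serum-free 2).

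**Figure D5:**
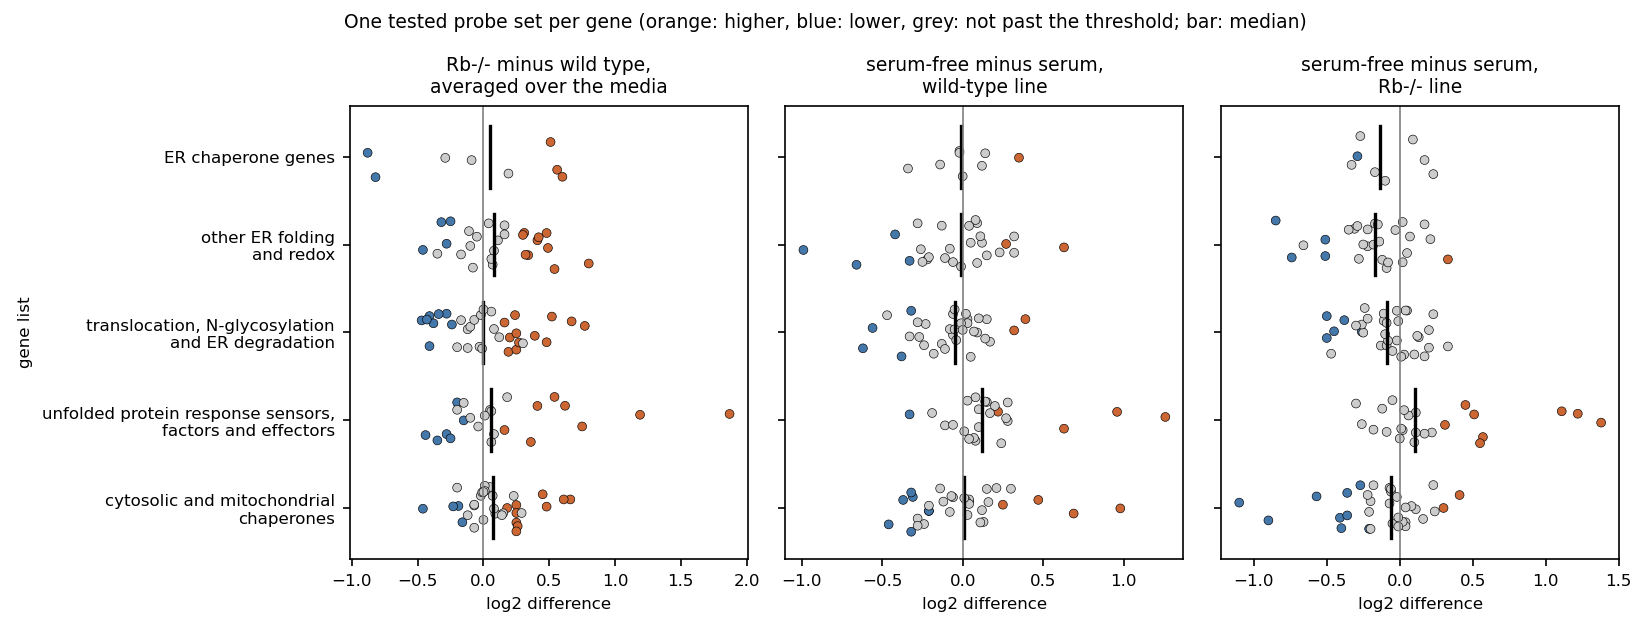
Log2 differences of single genes in 5 gene lists, 1 tested probe set per gene, for the averaged genotype difference and for serum withdrawal in each line. Orange points passed the threshold as higher, blue as lower, grey did not pass, and bars are medians. The ER chaperone genes lie on both sides of 0 between the lines, and on withdrawal the unfolded protein response list has a median of 0.12 in the wild-type and 0.10 in the Rb-/- line.

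The probe sets most like Hspa5 over the 9 arrays, among 2633 probe sets of other genes whose group means spanned at least 0.5, were those of Psme4 (Pearson r 0.982), Snapc3 (0.981), Cwc15 (0.979), Angptl4 (0.975) and Macir (0.973). For Pdia4 they were Mapre1 (0.989), Rcc2 (0.988), Egfr (0.985), Wnt7b (0.984) and Mapkapk2 (0.982). These values describe arrays that fall into 4 groups and share their processing. They were picked as the highest of 2633, so they cannot be compared with values of the ER chaperone genes, which were not picked. Among the ER chaperone probe sets the closest were Pdia3 for Hspa5 (0.840) and 94208_at of Pdia6 for Pdia4 (0.883), while Hspa5 and Pdia4 themselves had a value of -0.887.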

How the data were processed

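The values deposited by the authors were linear-scale intensities of each probe set on 9 arrays. The sources used here do not give the software, summary method or scaling that made them. Arrays were quantile normalized and taken to log2, and values under a floor were raised to it. The floor, 196.7, is the percentile 25 of the normalized values and stands in for detection. Probe sets above the floor on at least 2 arrays were tested, 9686 in all. 1 row was empty. Gene symbols came from the platform annotation, 1 symbol for 10832 probe sets, several for 396 and none for 1193, updated by gene identifier (GRCm38.p6).

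A single fit of 4 group means with limma 3.58.1 in R 4.3.3 and an intensity trend (5 residual and 4.20 prior degrees of freedom) gave all differences, two-sided, with Benjamini-Hochberg adjustment over all tested probe sets. It was tested on simulated data. Every member probe set is named. Other genes are named from the lists, up to 3 called genes per list and comparison by lowest adjusted p, or by likeness to Hspa5 or Pdia4, 5 each. Cell type markers and the sensor genes Eif2ak3 and Atf6 are named besides. The members and lists were chosen with earlier results of these data known. Promoter sequences are from RefSeq, and protein sequences were not used here.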

Additional observations from a re-analysis of the deposited data

How the results depend on the processing

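The alternatives were deposited values without normalization, median scaling, floors at percentile 10 and 40, no filter, no intensity trend, only the groups compared, the replicate number as a block, and each array left out in turn. Over the 66 differences of the tested probe sets (11 in 6 comparisons) these gave 1081 values. Of these, 46 lost a call, 30 gained one, 0 reversed a call, and 30 of those called neither way had the other sign. The count of called members in the wild-type withdrawal, 1, became 0 with median scaling, with no filter, with only the groups compared and with the replicate block, and 2 with the floor at percentile 10. In the Rb-/- withdrawal it was 4 in place of 2 with only the groups compared. Leaving out 1 array gave 5 to 10 calls for the averaged genotype difference, 3 to 8 in serum, 2 to 9 without serum, 0 to 2 for wild-type withdrawal, 1 to 4 for Rb-/- withdrawal and 0 to 1 for the interaction. The cause was not tested, except that fewer arrays were fitted. Over all probe sets the same fits called 3068 to 6074, 877 to 4376, 1159 to 4981, 667 to 1963, 497 to 2280 and 12 to 255, against 4377, 2287, 2971, 1536, 1348 and 90. A lone array left in a group was assumed to vary like the others.

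Correlations of the deviations of same-numbered arrays from their group means ran from -0.23 to 0.33 over 12 pairs. In a group of 2 arrays the deviations mirror each other. Between 2 such groups numbers 1 and 2 therefore give the same value, and the 12 are not independent. The correlations were 0.33 and 0.30 between wild-type serum and Rb-/- serum-free and at most 0.07 between the other groups, so the number was not taken as a pairing. With the replicate block 7 members were called in the averaged comparison, 5 in serum, 5 without serum, 0 in wild-type withdrawal, 2 in Rb-/- withdrawal and 0 in the interaction; wild-type serum 3 alone carries its number and drops out of that fit. With the numbers of the Rb-/- serum-free arrays crossed, chosen after seeing the data, 2 were called in Rb-/- withdrawal. Values near the floor, as for Dnajb9 and 1 Canx probe set, limit what low signal can show.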
